A study of Mus musculus with 45 samples.

Results

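Broad domains of histone H3 lysine 9 acetylation (H3K9ac) at 3 places in the mouse genome, given the working names Olfm1, Nrn1 and Rtn1 regions, lost signal in hippocampus of mouse models of neurodegeneration. The members were the domain peak2916 on chromosome 2 (28061404 to 28068757, 7354 bp), peak32067 on chromosome 13 (36821380 to 36828820, 7441 bp), peak30646 on chromosome 12 (73333955 to 73338359, 4405 bp), and every domain whose edge lay within 30 kb of one of them. That gave 15 of the 44165 domains of the series, 3 broad domains and 12 neighbours, with 9 members in the Olfm1 region, 3 in the Nrn1 region and 3 in the Rtn1 region. The broad domains were chosen by their measured losses: peak2916 from tau against wild type mice at 11 months, peak32067 from CK-p25 against CK mice at 6 weeks, and peak30646 from the difference between the CK-p25 changes at 6 and 2 weeks. Values from the comparison that chose a domain are therefore descriptions and carry no p-value. The neighbours were chosen by their distance from these domains, so each lies beside a domain picked for its loss. Coordinates are on mm9, and the gene names are labels for the regions, since no gene annotation of that build was used here.

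H3K9ac was profiled by ChIP-seq, the sequencing of DNA bound to acetylated histones that an antibody pulled down, in 23 hippocampal libraries of 8 groups, to find where acetylation differs between diseased and control mice. Tau mice carried MAPT P301S, a human tau gene with a mutation that makes the protein aggregate, and were set against wild type controls as females of 6 months (2 tau libraries, 3 controls) and males of 11 months (3 of each). CK-p25 mice, double-transgenic females in which p25 was induced, were compared with their CK littermates at 2 weeks after induction (age 3.5 months) and 6 weeks after induction (age 4.5 months), with 3 libraries per group. Age and sex changed together in the tau series, and age and time after induction changed together in the CK-p25 series, so neither pair can be told apart. The labels do not give the promoter that drives the MAPT transgene. As background, p25 overactivates the kinase Cdk5, and the CK-p25 line makes it in forebrain excitatory neurons. The labels do not say that each library is a separate animal, so p-values measure the spread between these libraries. The tissue could not be checked against cell type markers, since no annotation of the files' build was used here, and in bulk tissue fewer cells of a type and less acetylation per cell cannot be told apart.

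H3K9ac marks active promoters and enhancers. Most promoters carry a short acetylated stretch, while a small set of genes, often highly expressed genes that define a cell type, is covered by domains that extend far into the gene. Olfm1 encodes noelin, a secreted glycoprotein abundant in neurons that associates with AMPA-type glutamate receptors. Nrn1 encodes neuritin, a small membrane-anchored protein induced by neuronal activity that promotes neurite growth and synapse maturation. Rtn1 encodes reticulon 1, a neuronal member of the family of proteins that curve the endoplasmic reticulum.

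The promoters of Olfm1 and Rtn1 are shown because a broad H3K9ac domain usually lies at a CG-rich start site. RefSeq windows on GRCm38.p6 reach from 250 bases before to 50 bases after a start site. They were matched by gene symbol, coordinates were not converted to mm9, and whether a window lies inside a member domain was not tested. The table held 2 start sites of Olfm1 and 3 of Rtn1, and the 3 windows richest in CG are printed 5′ to 3′ on the gene's strand, with the GC box GGGCGG, on either strand, in capitals.
Olfm1, chr2:28192843-28193142 (plus strand): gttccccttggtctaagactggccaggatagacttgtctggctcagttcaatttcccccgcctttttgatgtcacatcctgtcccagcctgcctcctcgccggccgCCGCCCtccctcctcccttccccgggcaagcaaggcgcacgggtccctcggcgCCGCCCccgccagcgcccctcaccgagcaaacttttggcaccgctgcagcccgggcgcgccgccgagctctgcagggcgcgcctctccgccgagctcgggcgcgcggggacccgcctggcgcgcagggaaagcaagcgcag
Olfm1, chr2:28205439-28205738 (plus strand): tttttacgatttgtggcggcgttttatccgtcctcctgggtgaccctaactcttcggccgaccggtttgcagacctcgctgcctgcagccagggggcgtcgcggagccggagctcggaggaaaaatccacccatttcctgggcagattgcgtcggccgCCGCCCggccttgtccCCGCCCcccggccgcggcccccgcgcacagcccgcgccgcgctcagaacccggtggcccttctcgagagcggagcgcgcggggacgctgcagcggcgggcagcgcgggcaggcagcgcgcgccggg
Rtn1, chr12:72236678-72236977 (minus strand): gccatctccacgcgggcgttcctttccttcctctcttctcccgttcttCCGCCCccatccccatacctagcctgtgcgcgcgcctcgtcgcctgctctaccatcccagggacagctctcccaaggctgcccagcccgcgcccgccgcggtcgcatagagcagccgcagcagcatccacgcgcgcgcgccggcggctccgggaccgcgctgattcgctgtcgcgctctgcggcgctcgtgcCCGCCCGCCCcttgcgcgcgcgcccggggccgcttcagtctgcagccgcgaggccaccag
The first Olfm1 window held 32 CG and 2 GC boxes, and the second held 43 CG and 2 GC boxes. The Rtn1 window held 43 CG and 3 matches to the GC box, of which 2 overlap. Over 32851 mouse promoter windows the median was 7 CG, and 9.52% held at least as many CG as the first Olfm1 window, while 2.61% held at least as many as the second or as the Rtn1 window. A GC box was present in 35.7% of all windows. The cAMP response element TGACGTCA, in 1.79% of all windows, and the E-box CACGTG, in 7.15%, had no match in these 3 windows. The other Rtn1 windows held 8 and 3 CG, and 48.65% and 76.7% of all windows held at least as many. The printed windows were picked by their CG, so their CG shares are descriptions. The Olfm1 start sites lie 12.6 kb apart on GRCm38.p6. In the Olfm1 region there was a second domain even wider than the chosen one, peak2914 (28048233 to 28057655, 9423 bp), and the left edges of peak2914 and peak2916 lie 13.2 kb apart on mm9.

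The broad members belonged to the widest domains of the series, while most of their neighbours were short. Only 57 of 44165 domains (0.129%) were at least as wide as peak2914, 151 (0.342%) as peak2916 and 144 (0.326%) as peak32067, against 1083 (2.45%) for peak30646. The median width of all domains was 776 bp, and the other 11 members were 237 to 1471 bp wide. In length-corrected level, CPM (reads scaled to a common library size) divided by width in kb, the broad members were less extreme. Over the 23 libraries peak2916 averaged 20.2 CPM per kb in the tau series and 19.1 in the CK-p25 series, peak2914 15.4 and 16.0, peak32067 21.1 and 23.001, and peak30646 18.7 and 22.5, where the median domain had 10.5 and 11.0. Between 16.9% and 29.7% of all domains had a level per kb at least as high, so these domains stood out by width more than by level per kb.

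Levels are CPM after TMM scaling. Libraries of the tau series held 4.10 to 6.18 M reads in domains and those of the CK-p25 series 0.996 to 4.13 M, and the 3 broad domains held 83 to 1150 reads in each library. The labels give a cross correlation for each library, which measures how well the ChIP enriched. It was 0.228 ± 0.0263 in tau and 0.313 ± 0.0250 in wild type libraries at 11 months (SD, n = 3 each), without overlap, so the 11-month values of the broad domains are also given from a fit with it as a covariate. Cross correlation averaged 0.243 in tau and 0.245 in wild type libraries at 6 months, 0.167 in CK-p25 and 0.138 in CK libraries at 2 weeks, and 0.131 in CK-p25 and 0.0928 in CK libraries at 6 weeks.

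In tau mice at 11 months the Olfm1 region domain held 0.495 times the H3K9ac of wild type mice. The domain peak2916 had 94.5, 98.1 and 75.6 CPM in the tau libraries at 11 months, against 189.4, 183.4 and 166.8 CPM in the wild type libraries. The groups did not overlap, and the highest tau library lay far below the lowest wild type library. The means were 89.4 ± 12.1 CPM in tau and 179.9 ± 11.7 CPM in wild type mice (SD, n = 3 each), which is -1.01 ± 0.07 (SE) on the log2 scale. This comparison chose the domain, so no test is given. With cross correlation as a covariate the change was -0.83. The rank of the change follows in part from the choice of the domain and is only a description. A change as low was found at 516 of all domains tested (1.17%) and at 15 of the 4426 widest, the widest 10%.

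At 6 months the same domain had 175.1 and 165.8 CPM in the tau libraries and 167.6, 151.6 and 162.0 CPM in the wild type libraries. These groups overlapped, and edgeR gave a log2 change of 0.09 ± 0.07 (adjusted p = 1 by Benjamini-Hochberg over all domains). The 95% interval of the change ran from -0.05 to 0.23. The difference between the tau changes at 11 and 6 months was -1.10 ± 0.10 on the log2 scale and shares the libraries that chose the domain.

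In CK-p25 mice H3K9ac at peak2916 was lower than in CK mice at both times after induction. At 2 weeks the libraries had 151.2, 120.7 and 109.1 CPM in CK-p25 mice, against 179.8, 177.9 and 176.4 CPM in CK mice. At 6 weeks they had 98.7, 117.2 and 102.8 CPM in CK-p25 mice, against 149.7, 133.6 and 172.2 CPM in CK mice. At neither time did the groups overlap, and the CK-p25 libraries at 2 weeks spread more widely than their controls (SD 21.8 against 1.68 CPM). The domain fell by 0.47 ± 0.08 in log2 units at 2 weeks (edgeR adjusted p = 4.11e-05 by Benjamini-Hochberg) and by 0.50 ± 0.10 at 6 weeks (edgeR adjusted p = 0.000377). The difference between the changes at 2 and 6 weeks was -0.02, with a 95% interval of -0.27 to 0.23 (edgeR adjusted p = 0.999). At 2 weeks 1953 of all domains tested (5.11%) and 19 of the 4426 widest (0.429%) had a change as low. At 6 weeks 2996 of all domains tested (7.84%) and 121 of the widest (2.73%) did.

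**Figure D1:**
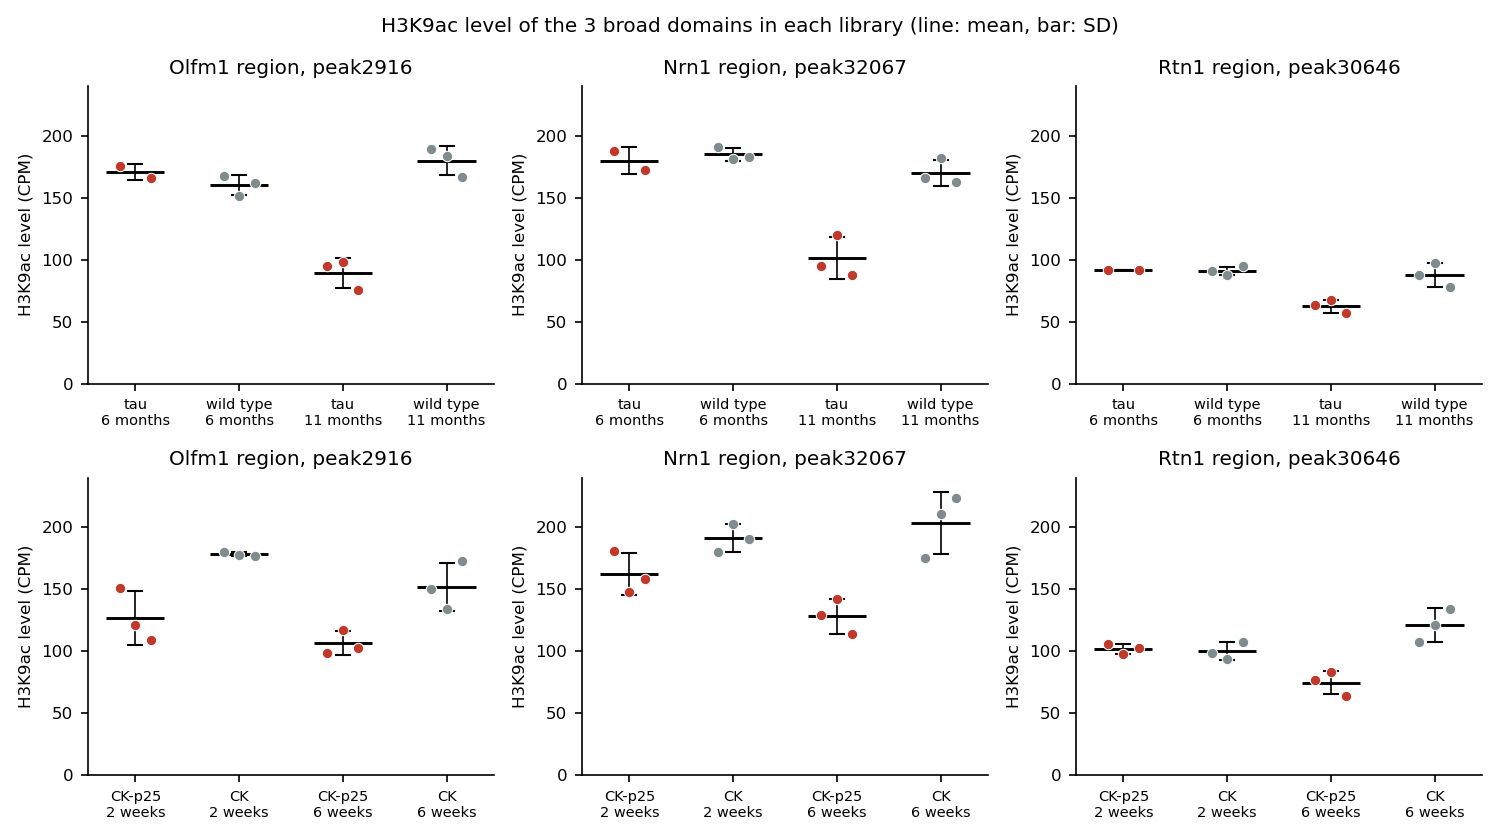
H3K9ac level (CPM) of the broad domains peak2916, peak32067 and peak30646 in every library, by group, in the tau series (upper row) and the CK-p25 series (lower row), where points are libraries, lines are means and bars are SD. At peak2916, which the 11-month comparison chose, the 11-month libraries lie at 75.6 to 98.1 CPM in tau against 166.8 to 189.4 CPM in wild type mice.

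The Nrn1 region domain peak32067 was lower in tau mice at 11 months, a comparison that did not choose it. The tau libraries had 95.1, 120.0 and 87.6 CPM at 11 months and the wild type libraries 165.7, 181.7 and 162.4 CPM. Every tau library lay below every wild type library. The means were 101 ± 16.9 CPM in tau and 169.9 ± 10.3 CPM in wild type mice (SD, n = 3 each), and the domain fell by 0.76 ± 0.07 in log2 units (edgeR, adjusted p = 1.21e-10 by Benjamini-Hochberg). A change as low was found at 1554 of all domains tested (3.52%) and at 129 of the 4426 widest (2.91%). With cross correlation as a covariate the change was -0.91 (edgeR adjusted p = 0.000454).

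At 6 months peak32067 had 187.3 and 171.9 CPM in the tau libraries and 190.5, 180.9 and 183.1 CPM in the wild type libraries. The groups overlapped, with a log2 change of -0.04 ± 0.07 (edgeR adjusted p = 1). The changes at 11 and 6 months differed by -0.72 ± 0.10 in log2 units (edgeR, adjusted p = 5.87e-06).

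In CK-p25 mice peak32067 did not pass the test at 2 weeks and was chosen for its loss at 6 weeks. At 2 weeks it had 180.6, 147.8 and 157.9 CPM in CK-p25 libraries and 180.2, 202.7 and 190.8 CPM in CK libraries. The highest CK-p25 library reached into the range of the CK libraries, and the change of -0.24 ± 0.08 on the log2 scale did not pass the threshold (edgeR adjusted p = 0.101). With each of the 12 libraries of the series left out in turn, the change ran from -0.33 to -0.17, with edgeR adjusted p up to 0.627. It passed the threshold only without that highest library, CK-p25 replicate 1 of 2 weeks (-0.33, edgeR adjusted p = 0.0200). At 6 weeks the domain had 129.2, 141.7 and 113.6 CPM in CK-p25 libraries and 175.3, 210.6 and 223.5 CPM in CK libraries. There the groups did not overlap, at means of 128 ± 14.1 CPM in CK-p25 and 203 ± 24.9 CPM in CK mice (SD, n = 3 each). The 6-week log2 change of -0.61 ± 0.09 chose the domain, as a description, and it was -0.49 without the libraries of lowest depth, CK replicate 3 and CK-p25 replicate 3. The difference between the times, -0.37 ± 0.12, uses the same libraries. Among the 6-week CK libraries the level was higher the lower the depth, which was 3.16, 1.55 and 0.996 M reads for replicates 1, 2 and 3, and the part of depth was not tested further than by leaving out both libraries of lowest depth.

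The Rtn1 region domain peak30646 was also lower in tau mice at 11 months, without having been chosen in that comparison. It had 63.0, 67.4 and 56.7 CPM in the tau libraries and 87.5, 96.9 and 78.2 CPM in the wild type libraries. The groups did not overlap, and the means were 62.3 ± 5.38 CPM in tau and 87.5 ± 9.33 CPM in wild type mice (SD, n = 3 each). The domain fell by 0.49 ± 0.07 in log2 units (edgeR, adjusted p = 3.80e-07 by Benjamini-Hochberg). A change as low was found at 10.2% of all domains tested and 11.0% of the widest. With cross correlation as a covariate the size was nearly the same at -0.48, but the call was lost (edgeR adjusted p = 0.123).

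At 6 months peak30646 had 91.8 and 91.9 CPM in the tau libraries, inside the range of 87.7 to 94.6 CPM of the wild type libraries. The log2 change was 0.01 ± 0.08 (edgeR adjusted p = 1). The changes at 11 and 6 months differed by -0.51 ± 0.11 in log2 units (edgeR, adjusted p = 0.00108), a call that was also lost with the covariate (edgeR adjusted p = 0.215).

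In the CK-p25 series peak30646 was chosen for its difference between the times. At 2 weeks it had 105.4, 97.5 and 102.4 CPM in CK-p25 libraries and 98.5, 93.7 and 107.7 CPM in CK libraries, and the groups overlapped. At 6 weeks it had 76.6, 83.1 and 64.1 CPM in CK-p25 libraries and 107.5, 121.1 and 134.3 CPM in CK libraries, without overlap. The log2 changes were 0.04 ± 0.09 at 2 weeks and -0.62 ± 0.10 at 6 weeks, a difference of -0.66 ± 0.13. Both groups moved between the times, with means of 102 and 74.6 CPM in CK-p25 mice and 99.96 and 121 CPM in CK mice at 2 and 6 weeks. As at peak32067, the level among the 6-week CK libraries was higher the lower the depth. The part of depth in the result was not tested further than by leaving out the shallowest library of each 6-week group, where the difference was -0.55.

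Ordered by level over the 8 groups, peak2916 was lowest in tau mice at 11 months (89.4 CPM) and in CK-p25 mice at 6 weeks (106 ± 9.71 CPM) and 2 weeks (127 ± 21.8 CPM). The 5 other groups averaged 152 to 179.9 CPM. In the tau series the other groups overlapped with their neighbours in this order and only the 11-month tau libraries lay apart, while in the CK-p25 series the CK libraries at 2 weeks lay above the rest and the other groups overlapped with their neighbours. For peak32067 the order began with tau mice at 11 months (101 CPM), CK-p25 mice at 6 weeks (128 CPM) and CK-p25 mice at 2 weeks (162 CPM), and the 11-month tau and 6-week CK-p25 libraries each lay below all others of their series. For peak30646 it began with tau mice at 11 months (62.3 CPM) and CK-p25 mice at 6 weeks (74.6 CPM), each below all other libraries of its series, and the other groups averaged 87.5 to 121 CPM. The series were scaled apart and used different antibody lots, so the order across them is a description.

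The 12 neighbours were used to see whether the losses ended at the edges of the broad domains. All 12 passed the filter on low counts in the tau series and 11 in the CK-p25 series, where peak2921 did not. At 11 months 5 of 12 neighbours were lower in tau mice, all of them in the Olfm1 region (edgeR, Benjamini-Hochberg threshold of 0.05). They lie beside peak2916, which this comparison chose, so their count is not independent of that choice. Of all domains tested, 7.56% were lower in tau mice, as were 27.3% of the widest, while 4.40% were higher, a direction in which no neighbour was called. The median log2 change of the neighbours was -0.48, against 0.01 over all domains. As 8 of the 12 lie in the Olfm1 region, this median mostly describes that region. The Nrn1 neighbours changed by -0.41 and -0.18 and the Rtn1 neighbours by -0.30 and 0.20, without a call. With cross correlation as a covariate 1 of the 5 calls was left, peak2914, and with DESeq2 2 were left. Without tau replicate 1 or wild type replicate 1 of this age 3 neighbours were called.

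The wide neighbour peak2914 in the Olfm1 region was also lower in tau mice at 11 months, at 0.593 times the wild type level. It had 97.1, 108.3 and 84.1 CPM in the tau libraries at 11 months and 164.6, 177.4 and 144.7 CPM in the wild type libraries. The groups did not overlap, and the domain fell by 0.75 ± 0.08 in log2 units (edgeR, adjusted p = 3.29e-09). At 6 months it had 169.4 and 162.3 CPM in tau libraries, within the wild type range of 147.5 to 171.6 CPM. The changes at the 2 ages differed by -0.79 ± 0.11 (edgeR adjusted p = 8.22e-06). Since peak2914 and peak2916 lie 3748 bp apart, they were not taken as independent measurements.

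The short neighbours in the Olfm1 region rested on fewer reads. In the gap between the wide domains, peak2915 (1166 bp) had 10.04, 10.4 and 9.94 CPM in the tau libraries at 11 months and 17.1, 15.0 and 13.7 CPM in the wild type libraries. To the right of peak2916, peak2918 (1471 bp) had 6.39, 7.03 and 7.36 CPM in the tau libraries and 11.2, 11.9 and 12.4 CPM in the wild type libraries. Both were below wild type in every tau library, and they fell by 0.59 ± 0.17 (edgeR adjusted p = 0.00940) and by 0.77 ± 0.19 (edgeR adjusted p = 0.00219) on the log2 scale. The domains peak2919 and peak2920, farther to the right, fell by 0.93 ± 0.29 (edgeR adjusted p = 0.0239) and 0.63 ± 0.21 (edgeR adjusted p = 0.0354), on 10 to 17 and 22 to 41 reads in each tau library. The change of peak2917, which lies 177 bp to the right of the broad domain, was -0.56 ± 0.34 (edgeR adjusted p = 0.330), and those of the farthest, peak2921 and peak2922, were 0.00 ± 0.38 and -0.20 ± 0.31. Summed over the 8 Olfm1 neighbours, the level was 131 ± 12.6 CPM in tau and 214 ± 16.1 CPM in wild type mice at 11 months (SD, n = 3 each).

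The neighbours in the Nrn1 and Rtn1 regions did not pass the test at 11 months. On the left of the Nrn1 domain, peak32066 (1470 bp) had 22.4, 19.4 and 16.0 CPM in the tau libraries and 24.2, 22.8 and 18.5 CPM in the wild type libraries. These overlapped, with a log2 change of -0.18 ± 0.13 (edgeR adjusted p = 0.462). Farther left, peak32065 (1065 bp) had 6.94, 8.97 and 8.65 CPM in tau and 9.22, 11.5 and 11.7 CPM in wild type libraries, which did not overlap, at -0.41 ± 0.19 (edgeR adjusted p = 0.162). The Rtn1 neighbours peak30645 (565 bp) and peak30647 (474 bp), on either side of the broad domain, changed by -0.30 ± 0.33 and 0.20 ± 0.31, neither past the threshold. Summed over both Nrn1 neighbours the level was 27.5 ± 2.49 CPM in tau and 32.6 ± 2.11 CPM in wild type mice, and over both Rtn1 neighbours 6.65 ± 1.47 CPM in tau and 6.67 ± 1.18 CPM in wild type mice (SD, n = 3 each). The 95% interval of peak32066, -0.44 to 0.09, did not reach the -0.76 of the Nrn1 broad domain, while that of peak32065, -0.77 to -0.04, did. The interval of peak30645, -0.95 to 0.36, held the -0.49 of the Rtn1 broad domain, and that of peak30647, -0.40 to 0.81, did not. The broad domain's own interval, -0.64 to -0.35, overlapped that of peak30647, so these 2 changes were not set apart.

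At 6 months 0 of 12 neighbours were lower in tau mice by edgeR, with 0 at an unadjusted p under 0.05 and 0 by DESeq2. Over all domains tested, 0% were called lower at 6 months by edgeR, where 1426 were past an unadjusted p of 0.05 in either direction and DESeq2 called 0. The difference between the tau changes at the 2 ages was called lower at 2 of 12 neighbours, peak2914 and peak2918 (-0.94 ± 0.28, edgeR adjusted p = 0.0324), against 3.21% of all domains called lower and 1.02% called higher, and DESeq2 called 1. The count was also 1 without tau replicate 1 or wild type replicate 2 or 3 of the 11-month mice, or without tau replicate 1 or 2 or wild type replicate 1 or 3 of the 6-month mice.

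**Figure D2:**
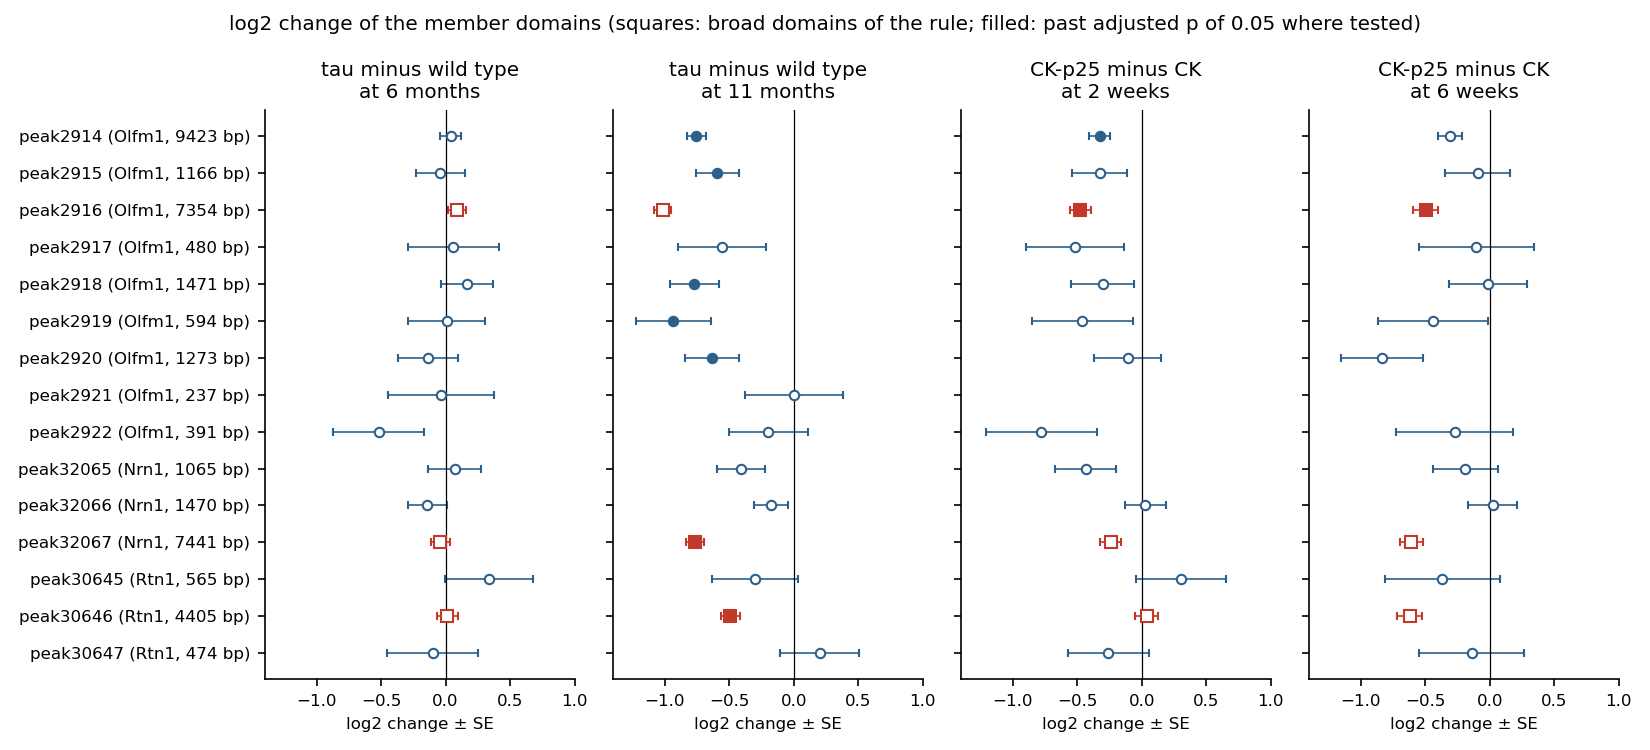
Log2 change ± SE of each member domain, from left to right in tau against wild type mice at 6 and 11 months and CK-p25 against CK mice at 2 and 6 weeks. Squares are the 3 broad domains, circles the neighbours, and filled symbols passed the edgeR threshold in a comparison that did not choose them. At 11 months the Olfm1 members run from -1.01 at peak2916, which this comparison chose, to 0.00 at peak2921.

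In CK-p25 mice few neighbours were called. At 2 weeks 1 of 11 neighbours was lower, peak2914, against 0.613% of all domains called lower, 3.59% of the widest, and 1.51% called higher. It had 164.4, 136.9 and 125.6 CPM in CK-p25 libraries and 166.8, 190.3 and 179.5 CPM in CK libraries, and the highest CK-p25 library lay just below the lowest CK library. The domain fell by 0.33 ± 0.08 in log2 units (edgeR, adjusted p = 0.0118), and the call was lost with DESeq2 (adjusted p = 0.150) and when any of CK-p25 replicates 2 and 3 and CK replicate 2 was left out. At 6 weeks 0 of 11 were called lower by edgeR, with 2 at an unadjusted p under 0.05 and 0 by DESeq2. Over all domains 4773 of 38193 were past an unadjusted 0.05 in either direction. The count was 1 without CK-p25 replicate 2 or CK replicate 2 of that time, or without any of the 3 CK-p25 libraries of 2 weeks, which share the estimate of spread. At that time 1.33% of all domains were called lower, 7.86% of the widest, and 1.32% were called higher. There peak2914 had 117.5, 144.7 and 113.6 CPM in CK-p25 libraries and 159.6, 141.5 and 170.2 CPM in CK libraries, which overlapped, at -0.31 ± 0.09 (edgeR adjusted p = 0.0534).

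The other 6-week neighbour past an unadjusted 0.05 was peak2920, with 5.12, 5.69 and 4.64 CPM in CK-p25 libraries and 10.2, 5.92 and 12.3 CPM in CK libraries. Those groups did not overlap, and the change of -0.84 ± 0.32 did not pass the threshold (edgeR adjusted p = 0.172). The median log2 change of the neighbours, most of them in the Olfm1 region, was -0.33 at 2 weeks and -0.19 at 6 weeks. All domains had 0.00 at both times. No neighbour was called in the difference between the times, for which 0.00524% of all domains, 2 of 38193, were called lower, with 0 of 11 neighbours at an unadjusted p under 0.05 by edgeR and 0 called by DESeq2.

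The share of a region's member reads that lay in its broad domain does not depend on library scaling. It was not adjusted for cross correlation, which was lower in tau than in wild type libraries at 11 months, and the part of enrichment in it was not tested. In tau mice at 11 months the Nrn1 broad domain held 78.4% ± 2.27 of the region's member reads, against 83.9% ± 0.591 in wild type mice (SD, n = 3 each). The groups did not overlap, at a difference of -5.45 percentage points (p = 0.1 by a two-sided exact permutation test, which cannot go lower with these group sizes). In the Olfm1 region the share was 40.5% ± 1.74 in tau and 45.7% ± 1.26 in wild type mice, a difference of -5.12 points in the comparison that chose the domain. In the Rtn1 region it was 90.4% ± 1.19 in tau and 92.8% ± 1.88 in wild type mice, with overlap (exact permutation p = 0.2). At 6 months the Olfm1 share was 44.3% in tau and 43.2% in wild type mice, a difference of 1.14 points. There the tau libraries lay above the wild type libraries without overlap (exact permutation p = 0.1, again the lowest possible). The 6-month differences were 0.31 points in the Nrn1 region (exact permutation p = 1) and -0.65 in the Rtn1 region (exact permutation p = 0.6).

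In CK-p25 mice the Olfm1 share was 41.1% ± 1.15 in CK-p25 and 44.0% ± 1.66 in CK libraries at 2 weeks (exact permutation p = 0.2). At 6 weeks it was 39.6% ± 1.04 in CK-p25 and 42.7% ± 1.64 in CK libraries (SD, n = 3 each; exact permutation p = 0.1). The Nrn1 share at 2 weeks was 82.9% ± 0.492 in CK-p25 and 84.3% ± 0.749 in CK libraries, without overlap (exact permutation p = 0.1). The 6-week shares of the Nrn1 domain, 78.8% in CK-p25 and 84.6% in CK libraries, and of the Rtn1 domain, 90.8% in CK-p25 and 93.5% in CK libraries, and the 2-week share of the Rtn1 domain, 91.0% in CK-p25 and 90.4% in CK libraries, come from comparisons that chose those domains.

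**Figure D3:**
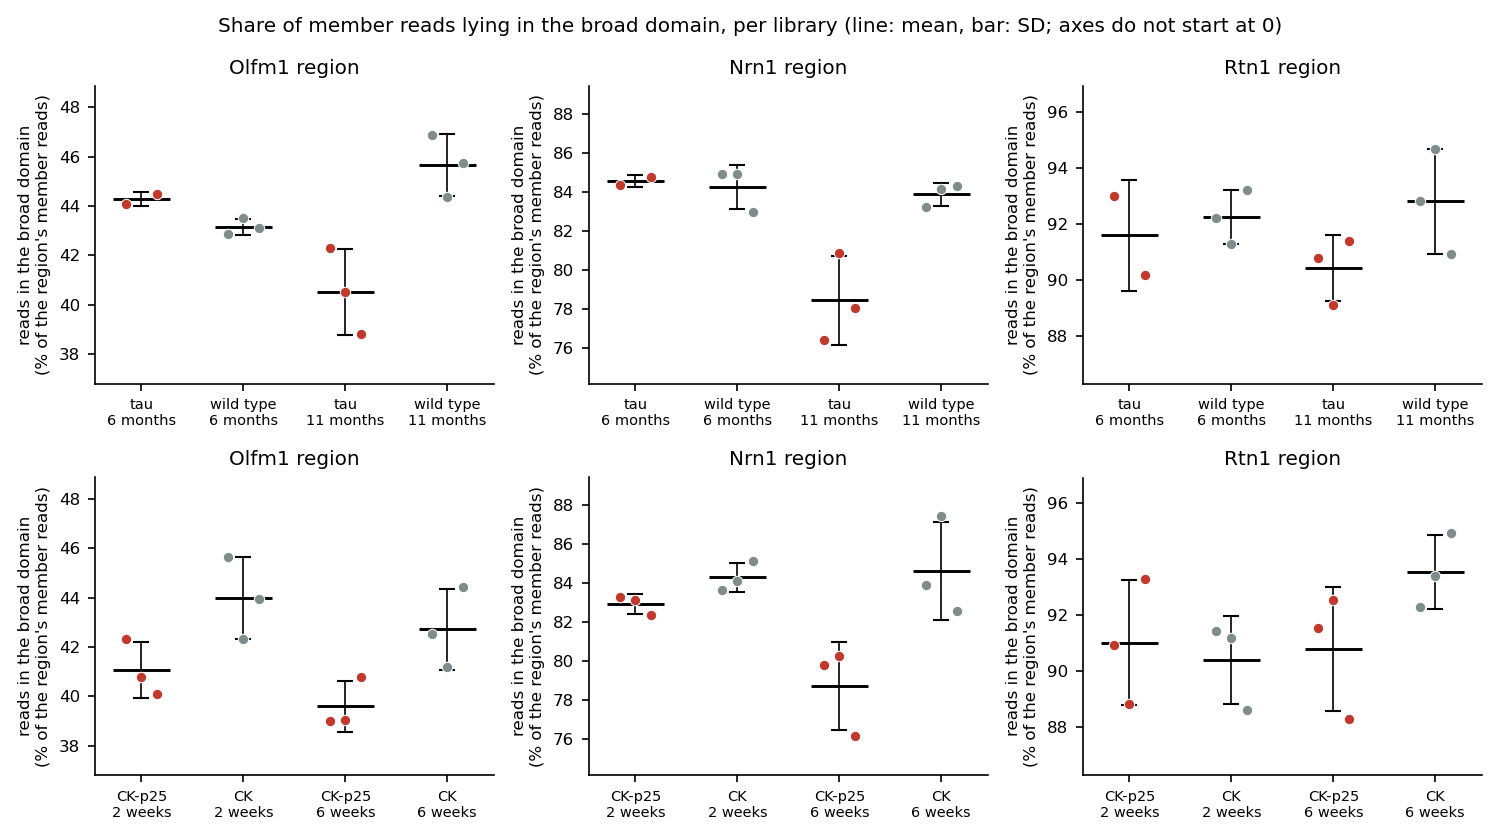
Share of the region's member reads that lay in the broad domain (% per library), by group, with lines for means and bars for SD, in the tau series (upper row) and the CK-p25 series (lower row). The axes do not start at 0. The Nrn1 shares of the 11-month tau libraries, 76.4% to 80.9%, lie below those of the wild type libraries, 83.2% to 84.3%.

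Beyond 30 kb some of the domains around the broad members were also lower in tau mice at 11 months. The nearest domain outside the window was peak2923 at 60.1 kb in the Olfm1 region, peak32064 at 116 kb in the Nrn1 region and peak30648 at 47.7 kb in the Rtn1 region, and the farthest inside were peak2922 at 14.3 kb, peak32065 at 4.21 kb and peak30645 at 2.73 kb. At 11 months the log2 changes of the nearest outside were -0.02, -0.71 and 0.14, and those of the farthest inside were -0.20, -0.41 and -0.30. Among domains within 250 kb that were not members, some were lower in tau mice at 11 months, and 0 were higher. These were 2 of 16 in the Olfm1 region, 2 of 6 in the Nrn1 region and 2 of 7 in the Rtn1 region. Of all domains tested 7.56% were lower, as were 27.3% of the widest 10%, which began at 2664 bp. The Rtn1 domains called, peak30643 (2412 bp) and peak30649 (2509 bp), were nearly that wide. In the Olfm1 region the called domains were peak2912 (-1.59 ± 0.52) and peak2913 (-0.82 ± 0.17, edgeR adjusted p = 0.000255), in the Nrn1 region peak32063 (-0.65 ± 0.14) and peak32064, and in the Rtn1 region peak30643 (-0.40 ± 0.07) and peak30649 (-0.45 ± 0.08). In CK-p25 mice the only call among them over both times was peak30649 in the Rtn1 region, lower at 6 weeks (-0.37 ± 0.11, edgeR adjusted p = 0.0476).

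**Figure D4:**
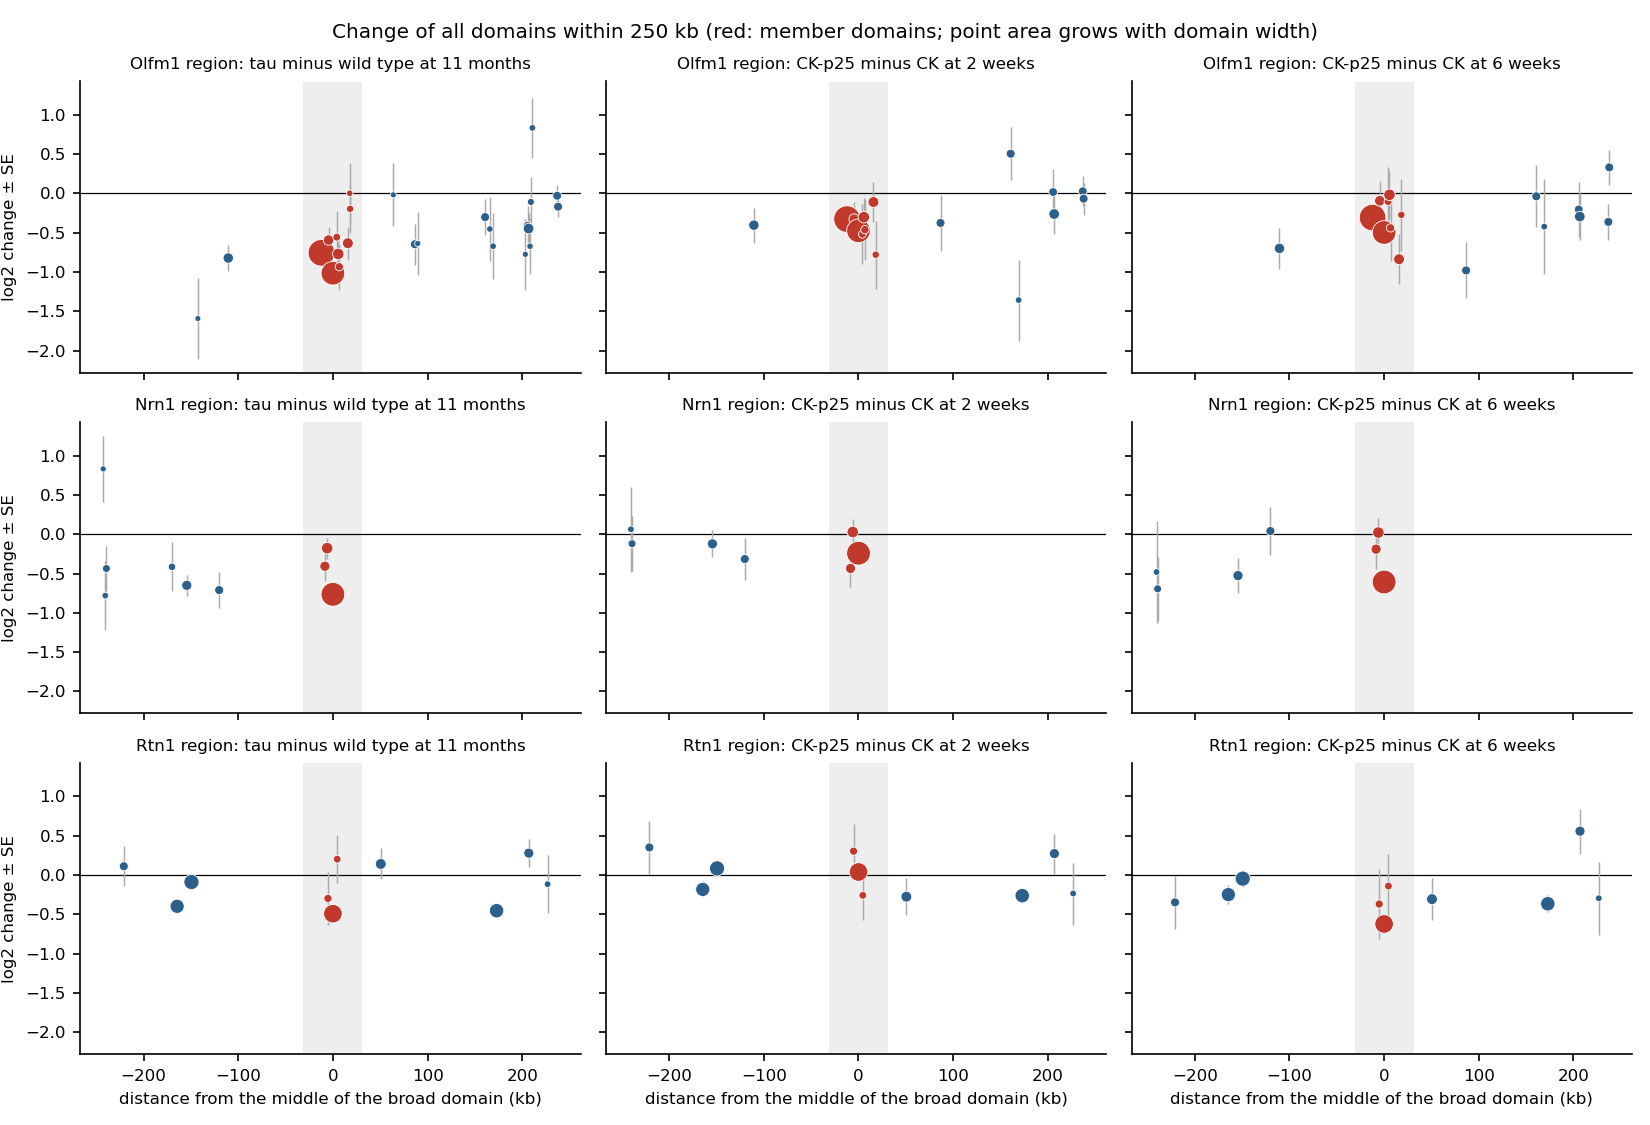
Log2 change ± SE of every tested domain within 250 kb of each broad domain's middle against its distance (kb), in tau against wild type mice at 11 months and CK-p25 against CK mice at 2 and 6 weeks. Red points are members, and the area of a point grows with its width. The shaded band reaches 30 kb to each side of the broad domain's middle, while the rule counts 30 kb from its edges. In the Olfm1 region at 11 months the members between the wide domains and just to the right lie with them below -0.5, while the farthest members at the right lie at 0.00 and -0.20.

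Across the 23 libraries the domains most like each broad member were not the same. With each library's log2 CPM centred on its series, peak2916 correlated best with peak34487 on chromosome 14 (7377 bp, Pearson r = 0.973) and peak29748 on chromosome 11 (5646 bp, r = 0.972) outside the members, of 25662 candidates. The next were peak32502, peak41348 and peak37220, the last at r = 0.966. Its neighbour peak2914 reached r = 0.972. For peak32067 the most alike were peak34384 on chromosome 14 (4077 bp, r = 0.982) and peak30213 on chromosome 12 (13798 bp, r = 0.975), followed by peak17113, peak12385 and peak1881, the last at r = 0.969. For peak30646 they were peak9559 (r = 0.957) and peak29031 (r = 0.954), followed by peak27315, peak19725 and peak25561, the last at r = 0.931. Between the broad members r was 0.906 for peak2916 and peak32067, 0.920 for peak32067 and peak30646, and 0.786 for peak2916 and peak30646. Among the candidates, peak32067 ranked 231 in likeness to peak2916 and 10 in likeness to peak30646. Every domain outside the members named as closest had a negative log2 change in tau mice at 11 months, from -0.27 (peak29031) to -0.88 (peak12385). The same held for CK-p25 mice at 6 weeks, from -0.32 (peak34487) to -0.70 (peak25561). Likeness was ranked on levels that hold the differences between groups, so this shared direction is partly built in. The points share libraries and groups, so these are descriptions with no test. The domains named as most alike depended on the measure: of the 5 closest to each, Spearman's correlation kept 2 for peak2916, 0 for peak32067 and 1 for peak30646.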

How the data were processed

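H3K9ac ChIP-seq of mouse hippocampus gave 23 libraries in 8 groups, and 22 libraries of input DNA, used by the authors in peak calling per the series' design text, have no values here. The authors deposited a matrix of raw counts, the reads of each library in each of 44165 domains common to all, without normalization. The submitters' processing notes name mm9 as the build and MACS2, BWA and Picard 1.1175 as tools, without their roles. The sources used here do not say whether libraries were pooled for peak calling. Reads were single-end without molecular identifiers, so counts of reads are not counts of molecules. All 23 count columns matched a sample by label, and 0 were left unmapped.

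The test on these counts was that of edgeR 4.0.16, run in R 4.3.3 (TMM scaling, filterByExpr by group, robust quasi-likelihood F test, two-sided, Benjamini-Hochberg over all domains tested, threshold 0.05), with a mean per group. Each series, with 11 tau and wild type or 12 CK-p25 and CK libraries, had its own fit. Standard errors are the size of the log2 change over the square root of F, and 95% intervals are 1.96 standard errors to each side. All 15 domains within the rule are named, and the domains most alike are the 5 with the highest Pearson correlation of log2 CPM (prior count 2) among those with at least 5 CPM in both series. Shares were compared by exact permutation over libraries. The members and lists were chosen with earlier results of these data known. Code was tested on simulated counts.

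All 22 replicate pairs differed by more than sampling noise (chi-square per degree of freedom 1.10 to 1.88). Alternatives were DESeq2 size factors or library totals as scaling, no filter, the DESeq2 1.42.0 Wald test, a replicate block, cross correlation as a covariate, the compared groups alone, autosomes alone, other neighbour distances, and each library left out in turn. RefSeq promoter windows are on GRCm38.p6.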

Additional observations from a re-analysis of the deposited data

Results flagged for a closer look

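At 4 members other than peak2916, the change in tau mice differed between 11 and 6 months. The difference was tested by edgeR as a contrast with Benjamini-Hochberg adjustment. Over all domains tested, the difference was called lower at 3.21% and higher at 1.02%. The difference was -0.72 on the log2 scale at peak32067 in the Nrn1 region and -0.51 at peak30646 in the Rtn1 region. The tau series did not choose these domains, and the call at peak30646 was lost with cross correlation as a covariate (edgeR adjusted p = 0.215). In the Olfm1 region the difference was -0.79 at peak2914 and -0.94 at peak2918, which are members as neighbours of peak2916. The call at peak2918 was lost in 9 of 18 alternatives. The broad domain peak2916 had -1.10, a description, since it was chosen on the 11-month libraries. In the CK-p25 series the change differed between 6 and 2 weeks at peak30646, by -0.66, and that difference chose the domain. Age and sex in the tau series, and age and time in the CK-p25 series, cannot be told apart.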

How the results depend on the processing

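Of the broad domains, the direction held under every alternative run for the called changes, and the median of all domains moved by at most 0.05 on the log2 scale with another scaling. With cross correlation as a covariate the Olfm1 change at 11 months was -0.83 and its difference between ages -0.92, and the Rtn1 values of -0.48 and -0.49 were no longer past the threshold. The cause was not tested. Leaving out 1 library, the Nrn1 change at 2 weeks ran from -0.33 to -0.17, and was past the threshold only without CK-p25 2 weeks replicate 1. Neighbours called lower at 11 months were 2 with DESeq2, 1 with the covariate and 3 to 5 with 1 library left out (3 without tau 11 months replicate 1 or wild type 11 months replicate 1). For the difference between ages they were 1 with DESeq2, 1 with the covariate and 1 to 2 with 1 library left out. At 2 weeks they were 0 with DESeq2 and 0 to 1 with 1 library left out, and at 6 weeks 1 with the covariate and 0 to 1 with 1 library left out. The differences in share at 6 months changed sign with 1 library left out, from -0.33 to 0.64 points in the Nrn1 and -2.06 to 0.75 points in the Rtn1 region.

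Over all domains, the counts lower and higher at 11 months were 2083 and 828 with DESeq2 and 517 and 178 with the covariate. For the difference between ages they were 845 and 153 with DESeq2 and 336 and 76 with the covariate, and at 2 and 6 weeks 39 and 265, and 243 and 211, with DESeq2. Libraries with the same replicate number shared little deviation (correlation of deviations -0.01 to 0.08 over 11 pairs) and were not paired in the main fit. This check cannot exclude pairing. With the replicate block 1 neighbour was called lower at 6 weeks, peak2914 at -0.31, and the Nrn1 change at 2 weeks was -0.25. Short neighbours held few reads, such as 2 to 31 per library at peak2919, whose standard error was 0.29 at 11 months and 0.43 at 6 weeks.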
